A study of Mus musculus with 24 samples.

Results

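The Hu family of mRNA-binding proteins was followed through its 4 mouse genes, Elavl1, Elavl2, Elavl3 and Elavl4. All probes carrying one of these names in the gene name column of the scanner files were taken, and each was read singly. They were 9 of the 41174 probes on the array: 3 for Elavl1 and 2 for each of the other genes. A probe was tested where some group had all 4 samples well above background, which held for 8 of the 9 Hu probes and for 24349 probes of the array.

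The arrays read RNA of N1E-115, a mouse neuroblastoma line that serves as a model of neurons, in 6 groups of 4 samples. TO-d, OT-d and WT-d cells were kept in differentiation medium with 2.5% fetal calf serum and 1.25% DMSO. TO-p, OT-p and WT-p cells were kept in proliferation medium with 10% serum. TO cells were transfected with a fusion of the N-terminal part of transcobalamin, the carrier of cobalamin (vitamin B12), to oleosin, and this fusion binds cobalamin strongly. OT cells carried the corresponding C-terminal fusion, for which no cobalamin binding was detected, and WT cells were not transfected. The sources used here do not say whether a transfected line was 1 clone, or what promoter drove the construct. The series title places HuR, the product of Elavl1, and its methylation and phosphorylation at the centre of the study. These arrays measured mRNA, so they hold no value of HuR protein, its modification or its place in the cell.

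Hu proteins carry 3 RNA recognition motifs and bind U-rich and AU-rich stretches in mRNAs, where they favour stability and translation. HuR is made in most cell types, lies mostly in the nucleus and shuttles to the cytoplasm. HuB (Elavl2), HuC (Elavl3) and HuD (Elavl4) are largely restricted to neurons and are widely used as markers of neuronal commitment, and HuD stabilises mRNAs such as Gap43 during neurite growth.

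The 4 genes moved in different ways when the medium changed, as given below, so their upstream sequences are shown side by side. Each is the 250 bases before an annotated start in the RefSeq table of the GRCm38.p6 build. Elavl1 and Elavl3 have 1 start each in that table, Elavl2 has 6 and Elavl4 has 4. For Elavl2 and Elavl4 the second most upstream start is shown, chosen after the motifs had been counted. Capitals mark CCAAT (or ATTGG on the other strand), CAGCTG (an E-box, the same on both strands) and TATAAA (or TTTATA on the other strand), which do not overlap in these windows.
Elavl1, chr8:4325101-4325350, minus strand: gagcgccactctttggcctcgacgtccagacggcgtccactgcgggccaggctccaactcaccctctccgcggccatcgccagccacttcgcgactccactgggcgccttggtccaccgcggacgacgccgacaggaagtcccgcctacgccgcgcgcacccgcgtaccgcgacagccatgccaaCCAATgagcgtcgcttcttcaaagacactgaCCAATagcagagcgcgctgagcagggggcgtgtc
Elavl2, chr4:91376497-91376746, minus strand: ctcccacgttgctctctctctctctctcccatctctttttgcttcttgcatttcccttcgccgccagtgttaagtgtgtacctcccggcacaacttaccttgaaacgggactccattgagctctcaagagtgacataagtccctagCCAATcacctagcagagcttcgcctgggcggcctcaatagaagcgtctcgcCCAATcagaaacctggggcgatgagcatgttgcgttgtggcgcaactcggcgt
Elavl3, chr9:22052024-22052273, minus strand: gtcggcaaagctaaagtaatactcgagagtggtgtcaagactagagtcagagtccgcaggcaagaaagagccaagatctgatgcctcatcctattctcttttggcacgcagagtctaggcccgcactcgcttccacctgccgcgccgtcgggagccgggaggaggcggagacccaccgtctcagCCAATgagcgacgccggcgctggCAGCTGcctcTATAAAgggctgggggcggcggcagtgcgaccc
Elavl4, chr4:110287528-110287777, minus strand: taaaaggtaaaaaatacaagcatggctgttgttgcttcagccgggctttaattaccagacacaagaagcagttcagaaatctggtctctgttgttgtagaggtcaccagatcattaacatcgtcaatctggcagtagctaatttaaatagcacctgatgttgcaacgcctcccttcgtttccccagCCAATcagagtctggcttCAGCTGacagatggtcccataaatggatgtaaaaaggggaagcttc
CCAAT stood in the window of Elavl1, in that of Elavl3, in 5 of the 6 of Elavl2 and in 3 of the 4 of Elavl4, several of which overlap each other. It was present in 33.8% of the 32851 windows of the whole table. CAGCTG was found for Elavl3 and for 2 starts of Elavl4 (13% of all windows), and TATAAA for Elavl3 alone (12.4% of all windows). These matches are letters in a window and were not tested for any function.

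Each array held 2 samples, 1 in Cy5 and 1 in Cy3, and the 12 arrays lay on 3 slides. In every group 2 samples were labelled with Cy5 and 2 with Cy3. The groups were not balanced over the slides. WT-d replicates 1, 3 and 4 lay on slide 1 and replicate 2 on slide 3, while OT-d lay on slides 2 and 3. OT-d and WT-d thus shared slide 3 alone, with 1 WT-d sample on it, so line and slide are largely mixed in that comparison. With the slide as a covariate, 94 of 96 probe comparisons stayed on their side of the threshold. Per sample, 54.26 to 65.87% of spots passed the scanner software's test against background, and every sample correlated best with a sample of its own group (r of 0.9863 to 0.998 within groups). Levels below are normalized log2 intensities, in the order of replicates 1 to 4, and the small number of arrays limits their precision. In each group 1 pair of samples shares a number in its descriptions, 1 of them with the letter b, and the sources used here do not say what the letter means. That pair was the closest of the opposite-dye pairs of its group in 2 of the 6 groups. Of 18 neuronal markers, 16 were well above background in all 24 samples (Tubb3, Syn1, Chga and others), Dcx in 6 and Nefl in none, and 10 of 12 sympathetic markers such as Th, Dbh and Hand2 were above it in all.

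Probe positions are those of the scanner files, on the mm8 build, where all 4 genes run on the minus strand. Elavl1 had 3 probes on chromosome 8: a 3′ probe at 4285514 to 4285573, a middle probe at 4288445 to 4288504 and a 5′ probe at 4289613 to 4289672. Elavl2 had a 3′ probe on chromosome 4 at 90743738 to 90743797 and a 5′ probe at 90744745 to 90744804. Elavl3 had a 3′ probe on chromosome 9 at 21768429 to 21768488 and a 5′ probe at 21773247 to 21773306. Elavl4 had a 3′ probe on chromosome 4 at 109704102 to 109704161 and a 5′ probe at 109709510 to 109709569. The Elavl3 5′ probe was not well above background in any of the 24 samples (5.93 to 6.33), so it gives no comparison. The other 8 probes were above background in all 24. The names 3′, middle and 5′ give only the order of the probes of a gene, and the Elavl1 5′ probe lies 4099 bases from its 3′ probe. No exon annotation of this build was used here, so the names do not say which part of the transcript a probe reads.

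**Figure D1:**
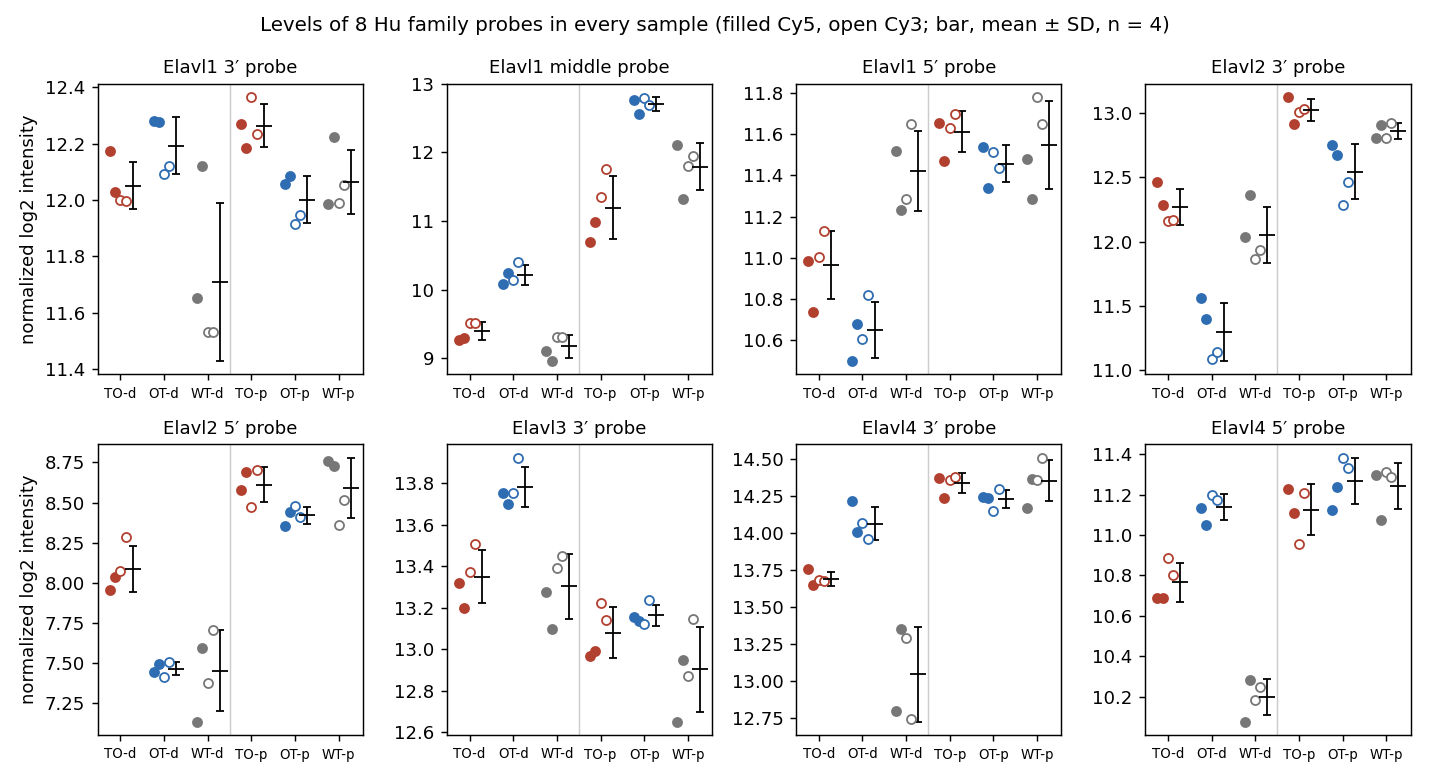
Normalized log2 intensity (vertical axes, not starting at 0) of the 8 Hu probes tested, in each of the 24 samples by group (horizontal axes); filled points are Cy5, open points Cy3, and the bar beside them is the mean ± SD of 4 samples. The Elavl1 middle probe spans 3.53 log2 units between group means, while the Elavl1 3′ probe spans 0.55.

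Elavl1 was read differently by its 3 probes. The middle probe fell in differentiation medium in all 3 lines, with log2 differences of -2.69 to -1.78, and differed between lines in proliferation medium. The 5′ probe fell in the 2 transfected lines, and the 3′ probe moved by 0.33 log2 units or less with the medium.

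The Elavl1 middle probe read 9.26, 9.29, 9.51 and 9.52 in TO-d, against 10.69, 10.98, 11.35 and 11.76 in TO-p. It read 10.08, 10.24, 10.14 and 10.41 in OT-d, against 12.77, 12.57, 12.80 and 12.69 in OT-p. It read 9.11, 8.96, 9.31 and 9.32 in WT-d, against 12.11, 11.33, 11.80 and 11.94 in WT-p. In each line every sample in differentiation medium lay below every sample in proliferation medium. The fitted fall was 3.44-fold in TO (log2 -1.78 ± 0.13, SE, adjusted p = 7.29e-11), 5.73-fold in OT (log2 -2.52 ± 0.12, adjusted p = 2.45e-14) and 6.47-fold in WT (log2 -2.69 ± 0.14, adjusted p = 9.42e-14). A fall of at least the size seen in WT occurred at 0.867% of the probes tested. The fall was smaller in TO than in OT, by 0.74 log2 units (adjusted p = 0.00324), and smaller in TO than in WT, by 0.91 (adjusted p = 0.000826), while OT and WT differed by 0.18 (95% interval -0.19 to 0.54).

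Between lines, the middle probe was 2.83-fold lower in TO-p cells than in OT-p cells (11.20 ± 0.46 and 12.71 ± 0.10, SD, n = 4, adjusted p = 1.81e-09). A difference at least as low was found at 0.296% of the probes tested. It was 1.58-fold lower in TO-p cells than in WT-p cells, with overlapping samples (11.20 ± 0.46 and 11.80 ± 0.34, adjusted p = 0.000268), and 1.79-fold higher in OT-p cells than in WT-p cells (adjusted p = 4.96e-06). In differentiation medium it was 1.70-fold lower in TO-d cells than in OT-d cells (adjusted p = 0.000119) and 2.02-fold higher in OT-d cells than in WT-d cells (adjusted p = 9.11e-07), with no overlap in either. TO-d and WT-d differed by log2 0.25, which was not called (95% interval -0.05 to 0.55). From high to low the group means ran OT-p, WT-p, TO-p, OT-d, TO-d, WT-d, and the ranges overlapped between WT-p and TO-p and between TO-d and WT-d. The direction of these called differences was the same within each slide that held both groups: TO-p against OT-p gave -2.08, -1.24 and -1.65 on the 3 slides.

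The Elavl1 3′ probe read 12.17, 12.03, 12.001 and 11.998 in TO-d, against 12.27, 12.19, 12.37 and 12.23 in TO-p. It read 12.28, 12.28, 12.09 and 12.12 in OT-d, against 12.06, 12.08, 11.91 and 11.95 in OT-p. In WT-d it read 11.65, 12.12, 11.53 and 11.53, against 11.98, 12.23, 11.99 and 12.05 in WT-p. The first pair did not overlap, with TO-d lower, and neither did the second, with OT-d higher, but neither was called (log2 -0.18 and 0.12, adjusted p = 0.0863 and 0.209). The fall in WT was called (log2 -0.33 ± 0.09, adjusted p = 0.00293), although WT-d replicate 2 lay among the WT-p samples. The medium response differed between OT and WT by 0.45 log2 units (adjusted p = 0.00475).

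In line comparisons the 3′ probe was 1.26-fold higher in TO-d and 1.31-fold higher in OT-d cells than in WT-d cells (adjusted p = 0.00745 and 0.00052), with overlap in both. Without WT-d replicate 4 the TO-d call was lost (adjusted p = 0.0502), and on slide 3 alone both differences turned to -0.12 and -0.01. It was 1.17-fold higher in TO-p cells than in OT-p cells (adjusted p = 0.0237), but leaving out replicate 3 of TO-p (adjusted p = 0.101), replicate 2 of OT-p (0.0564) or replicate 4 of OT-p (0.0608) ended that call. From high to low the group means ran TO-p, OT-d, WT-p, TO-d, OT-p, WT-d, and each overlapped the next.

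The Elavl1 5′ probe read 10.99, 10.74, 11.01 and 11.13 in TO-d, against 11.65, 11.47, 11.63 and 11.70 in TO-p. It read 10.499, 10.68, 10.60 and 10.82 in OT-d, against 11.54, 11.34, 11.51 and 11.44 in OT-p. WT-d read 11.52, 11.23, 11.29 and 11.65, against 11.48, 11.29, 11.78 and 11.65 in WT-p. The groups were apart in both transfected lines and overlapped in WT. The probe fell 1.51-fold in TO (log2 -0.60 ± 0.09, adjusted p = 6.56e-06) and 1.72-fold in OT (log2 -0.78 ± 0.09, adjusted p = 2.68e-08), while WT changed by log2 -0.11 (95% interval -0.31 to 0.08). The response was more negative than in WT by 0.48 log2 units in TO (adjusted p = 0.00706) and by 0.67 in OT (adjusted p = 0.000212). The TO call was lost under 2 alternatives (adjusted p up to 0.576). In differentiation medium the probe was 1.35-fold lower in TO-d and 1.69-fold lower in OT-d cells than in WT-d cells (adjusted p = 0.00145 and 3.53e-07), with no overlap. TO-d was 1.25-fold above OT-d with overlap (adjusted p = 0.00959), a call lost without TO-d replicate 4 (adjusted p = 0.0618). None of the 3 line comparisons in proliferation medium was called at this probe (log2 -0.09 to 0.14). From high to low the means ran TO-p, WT-p, OT-p, WT-d, TO-d, OT-d, and WT-d and TO-d were the one pair of neighbours that did not overlap.

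The disagreement among probes was compared sample by sample. The probes of Elavl1 were already known to disagree in these data when it was chosen to read each probe singly. The tests below describe that disagreement and give it no separate support. Between OT-d and OT-p the 3′ probe changed by 0.19 log2 units in plain group means, the middle probe by -2.49 and the 5′ probe by -0.81. Over 5 pairs of probes of one gene and 9 comparisons between groups, 45 exact permutation tests were run, and 22 reached an exact two-sided p of 0.0286, the smallest that 4 against 4 samples allow. After Benjamini-Hochberg adjustment over the 45, the smallest was 0.0585, so none passed 0.05. Since an exact p could not go below 0.0286, this value depends on how many tests reached it, not on how large the differences were. That none passed does not show that the probes agreed. Of the 22, 8 came from the middle and 5′ probes of Elavl1, 7 from its 3′ and middle probes, 4 from its 3′ and 5′ probes, 2 from Elavl4 and 1 from Elavl2. Over the 24 samples the Elavl1 middle probe had a Pearson correlation of 0.242 with the 3′ probe and 0.483 with the 5′ probe, and the 3′ and 5′ probes had -0.242. The 2 probes of Elavl2 had 0.846 and those of Elavl4 0.92. These are descriptions over samples that share groups and arrays.

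**Figure D2:**
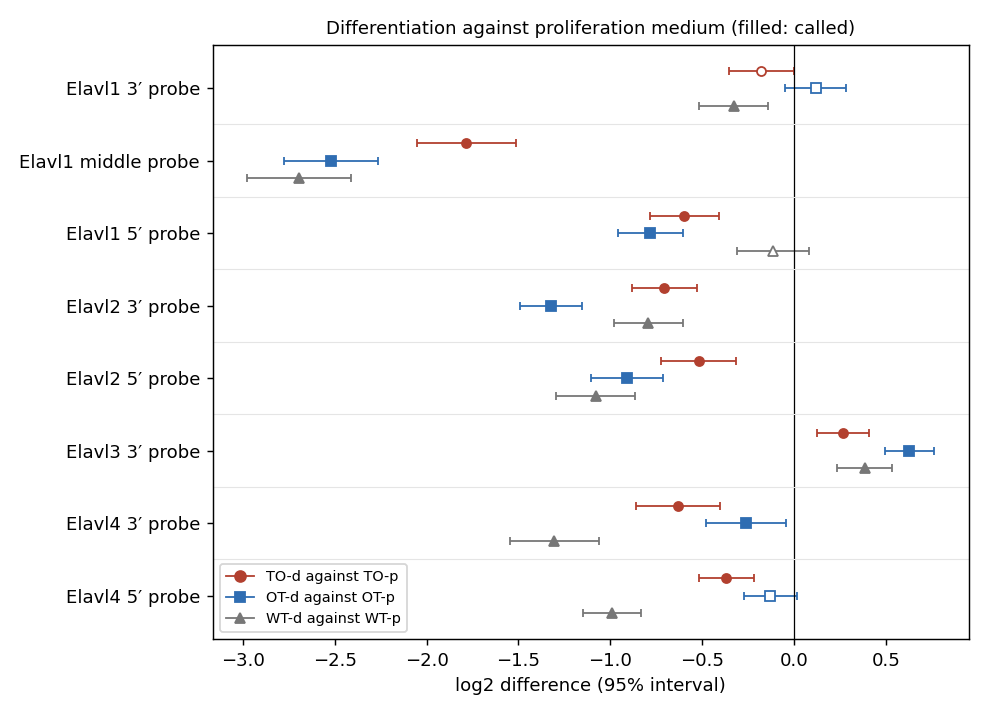
Fitted log2 difference between differentiation and proliferation medium (horizontal axis, with its 95% interval) for the 8 Hu probes (rows) in TO, OT and WT cells; filled points were called at an adjusted p under 0.05. The 3 points of the Elavl1 middle probe lie between -2.69 and -1.78, and Elavl3 is the probe with all 3 points above 0.

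Elavl2, which encodes the neuronal HuB, fell in differentiation medium at both probes in all 3 lines. The 3′ probe read 12.46, 12.28, 12.16 and 12.17 in TO-d, against 13.12, 12.91, 13.00 and 13.03 in TO-p. It read 11.56, 11.40, 11.09 and 11.14 in OT-d, against 12.75, 12.67, 12.29 and 12.46 in OT-p. WT-d read 12.03, 12.36, 11.87 and 11.94, against 12.80, 12.90, 12.80 and 12.92 in WT-p. No pair overlapped. The fall was 1.63-fold in TO, 2.50-fold in OT and 1.73-fold in WT (adjusted p = 2.68e-07, 1.21e-12 and 6.3e-08). It was smaller in TO than in OT by 0.62 log2 units (adjusted p = 0.00039) and larger in OT than in WT by 0.53 (adjusted p = 0.00113). The call between OT and WT was lost under 2 alternatives (adjusted p up to 0.15).

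Among lines, the Elavl2 3′ probe was lowest in OT in both media. It was 2.05-fold higher in TO-d cells than in OT-d cells (12.27 ± 0.14 and 11.30 ± 0.22, SD, n = 4, adjusted p = 5.02e-09) and 1.33-fold higher in TO-p cells than in OT-p cells (adjusted p = 0.000218). It was 1.77-fold lower in OT-d cells than in WT-d cells (adjusted p = 4.34e-08) and 1.23-fold lower in OT-p cells than in WT-p cells (adjusted p = 0.00336). None of these 4 pairs overlapped. TO did not differ from WT by a called amount in either medium (log2 0.21, 95% interval 0.01 to 0.41, and 0.12, -0.05 to 0.29). The means ran TO-p, WT-p, OT-p, TO-d, WT-d, OT-d from high to low, and WT-p from OT-p and WT-d from OT-d were the neighbours whose ranges were apart.

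The Elavl2 5′ probe read 7.96, 8.03, 8.07 and 8.28 in TO-d, against 8.58, 8.69, 8.47 and 8.71 in TO-p. It read 7.45, 7.49, 7.42 and 7.50 in OT-d, against 8.35, 8.44, 8.48 and 8.41 in OT-p. In WT-d it read 7.13, 7.59, 7.38 and 7.71, against 8.76, 8.73, 8.36 and 8.51 in WT-p. It fell 1.43-fold in TO, 1.88-fold in OT and 2.11-fold in WT with no overlap (adjusted p = 0.00011, 9.49e-09 and 4.71e-09). The TO call was lost under 1 alternative (adjusted p = 0.177). TO-d stood above both other groups in that medium, 1.56-fold over OT-d and 1.50-fold over WT-d (adjusted p = 3.52e-05 and 0.000185), and OT-d and WT-d did not differ by a called amount (log2 -0.06, 95% interval -0.26 to 0.14). So OT-d was below WT-d at the 3′ probe and overlapped it at the 5′ probe. The response was smaller in TO than in WT by 0.56 log2 units (adjusted p = 0.00443), a call lost under 1 alternative (adjusted p = 0.0677). It was also smaller in TO than in OT by 0.39 (adjusted p = 0.0329), a call lost without TO-p replicate 2 or 3, TO-d replicate 4, OT-p replicate 2 or OT-d replicate 3 or 4 (adjusted p = 0.0528 to 0.165).

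In proliferation medium the 5′ probe of Elavl2 was 1.19-fold higher in TO-p cells than in OT-p cells (adjusted p = 0.0335) and 1.17-fold lower in OT-p cells than in WT-p cells (adjusted p = 0.0402), with overlap in both. The first call was lost without TO-p replicate 1, 2 or 4 or OT-p replicate 1 or 4 (adjusted p = 0.0604 to 0.0963), and the second without OT-p replicate 1, 3 or 4 or WT-p replicate 1, 2 or 4 (adjusted p = 0.0604 to 0.196). The 5′ means ran TO-p, WT-p, OT-p, TO-d, OT-d, WT-d, with OT-p apart from TO-d and TO-d apart from OT-d.

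Elavl3, which encodes the neuronal HuC, rose in differentiation medium in all 3 lines, at its one measured probe. It read 13.32, 13.20, 13.37 and 13.51 in TO-d, against 12.97, 12.99, 13.22 and 13.14 in TO-p. It read 13.75, 13.70, 13.75 and 13.92 in OT-d, against 13.16, 13.14, 13.12 and 13.24 in OT-p. In WT-d it read 13.28, 13.10, 13.39 and 13.45, against 12.65, 12.95, 12.87 and 13.14 in WT-p. The groups were apart in OT and overlapped slightly in TO and WT. The rise was 1.20-fold in TO, 1.55-fold in OT and 1.31-fold in WT (adjusted p = 0.00219, 1.01e-08 and 6.48e-05). The TO and WT calls were each lost under 1 alternative (adjusted p = 0.0866 and 0.185).

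Elavl3 had its highest mean in OT-d. It was lower in TO-d cells than in OT-d cells by 0.44 log2 units (log2 -0.44 ± 0.07, adjusted p = 4.27e-05). OT-d was also 1.40-fold above WT-d (adjusted p = 3.49e-06), and no OT-d sample overlapped either group. TO-d and WT-d differed by log2 0.05 (95% interval -0.11 to 0.21). In proliferation medium OT-p was 1.18-fold above WT-p (adjusted p = 0.00283), with overlap, and TO-p was not called against either. That OT-p call was lost under 3 alternatives (adjusted p up to 0.129). The rise was smaller in TO than in OT by 0.36 log2 units (adjusted p = 0.00543), a call lost under 2 alternatives (adjusted p up to 0.191). It was larger in OT than in WT by 0.24 (adjusted p = 0.0479), a call lost without OT-d replicate 1, 2 or 4, OT-p replicate 2, 3 or 4, WT-d replicate 2, 3 or 4 or WT-p replicate 2 or 4 (adjusted p = 0.0516 to 0.154). The means ran OT-d, TO-d, WT-d, OT-p, TO-p, WT-p, and only OT-d was apart from its neighbour.

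Elavl4, which encodes the neuronal HuD, fell most in WT cells. The 3′ probe read 13.76, 13.65, 13.69 and 13.67 in TO-d, against 14.37, 14.23, 14.36 and 14.38 in TO-p. It read 14.22, 14.01, 14.07 and 13.96 in OT-d, against 14.24, 14.24, 14.15 and 14.30 in OT-p. WT-d read 12.80, 13.36, 13.29 and 12.74, against 14.17, 14.37, 14.36 and 14.51 in WT-p. WT-d was the lowest group, with no sample reaching the other groups, and OT-d overlapped OT-p. The fall was 1.55-fold in TO, 1.20-fold in OT and 2.47-fold in WT (adjusted p = 4.12e-05, 0.0313 and 1.37e-09). The OT call was lost without OT-d replicate 2, 3 or 4 or OT-p replicate 1, 2 or 4 (adjusted p = 0.0507 to 0.104).

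The Elavl4 5′ probe read 10.69, 10.69, 10.88 and 10.80 in TO-d, against 11.23, 11.11, 10.95 and 11.21 in TO-p. It read 11.13, 11.05, 11.20 and 11.17 in OT-d, against 11.12, 11.24, 11.38 and 11.33 in OT-p. WT-d read 10.08, 10.28, 10.18 and 10.25, against 11.30, 11.07, 11.31 and 11.29 in WT-p. It fell 1.29-fold in TO and 1.99-fold in WT with no overlap (adjusted p = 0.000153 and 1.13e-10), and the change in OT was not called (log2 -0.13, 95% interval -0.27 to 0.01). At both probes the fall was smaller than in WT: by 0.68 and 0.62 log2 units in TO (adjusted p = 0.0026 and 0.000122) and by 1.04 and 0.86 in OT (adjusted p = 1.32e-05 and 6.89e-07), for the 3′ and the 5′ probe in turn.

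The lines differed at Elavl4 in differentiation medium. OT-d was 1.97-fold above WT-d at the 3′ probe and 1.88-fold at the 5′ probe (adjusted p = 1.58e-07 and 7.23e-10). TO-d was 1.56-fold and 1.44-fold above WT-d (adjusted p = 0.000227 and 1.83e-05). TO-d was 1.26-fold and 1.31-fold below OT-d (adjusted p = 0.0258 and 0.000298). None of these pairs overlapped at either probe. The 3′ call between TO-d and OT-d was lost without TO-d replicate 1 or 4 or OT-d replicate 1 (adjusted p = 0.0602 to 0.0977). The 5′ call between them was lost under 1 alternative (adjusted p = 0.133). In proliferation medium no line comparison was called at either Elavl4 probe, with log2 differences of -0.15 to 0.05. At the 3′ probe the means ran WT-p, TO-p, OT-p, OT-d, TO-d, WT-d, and at the 5′ probe OT-p, WT-p, OT-d, TO-p, TO-d, WT-d; the last 3 groups of the 3′ order were apart from each other, as were TO-p, TO-d and WT-d of the 5′ order.

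**Figure D3:**
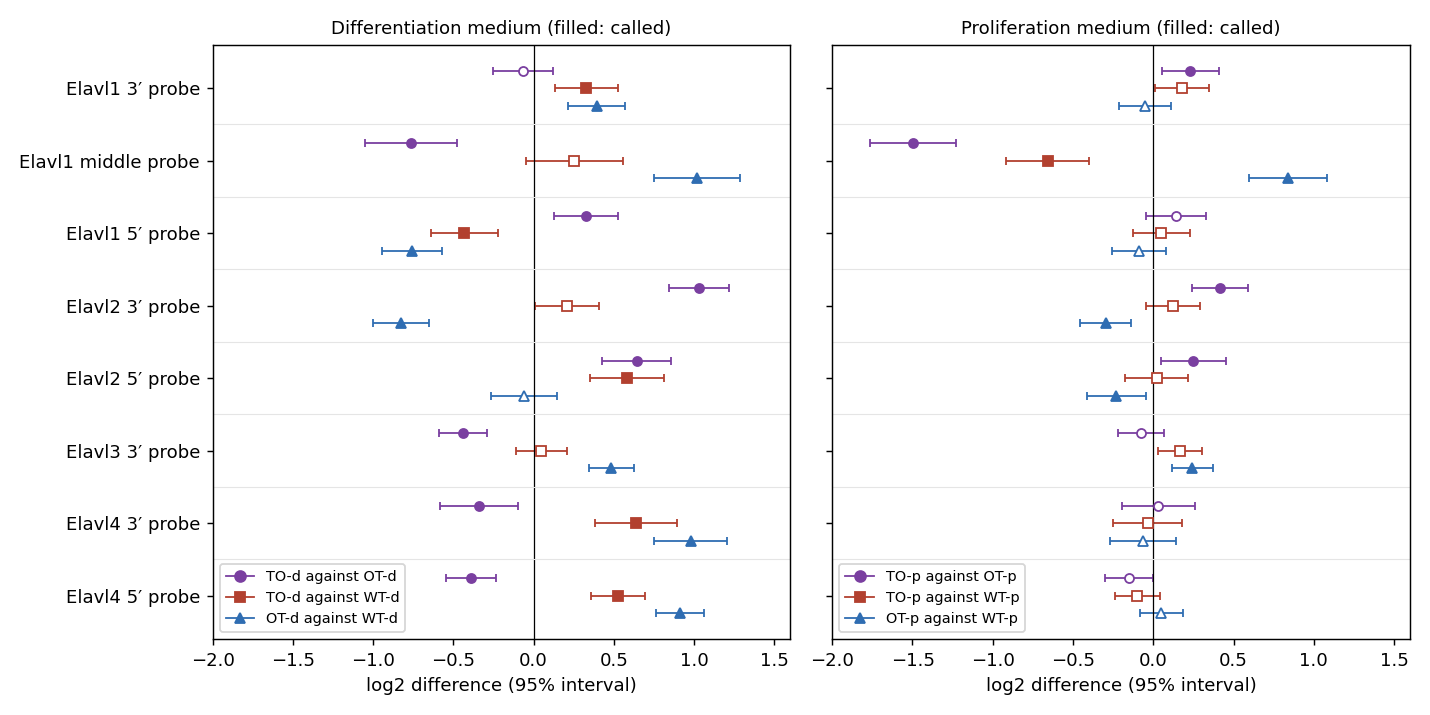
Fitted log2 difference between lines (horizontal axes, with 95% intervals) for the 8 Hu probes (rows) in differentiation medium (left) and proliferation medium (right); filled points were called at an adjusted p under 0.05. In proliferation medium the largest differences are those of the Elavl1 middle probe (-1.50, -0.66 and 0.84), and those of both Elavl4 probes lie between -0.15 and 0.05.

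The share of the 8 Hu probes that was called, in either direction, was above the share of all probes tested in 10 of 12 comparisons. It was 87.5% against 37.1% of all probes in TO-d against OT-d, for example, and lower than the array's share in TO-p against OT-p (50% against 55.7%) and in TO-p against WT-p (12.5% against 32.7%). In TO-d against TO-p, 1 Hu probe of 8 was called higher and 6 lower, where 25.7% of all probes were higher and 25.2% lower. In OT-d against OT-p, 1 was higher and 5 lower (33.2% and 33.9% of all probes), and in WT-d against WT-p, 1 was higher and 6 lower (32.6% and 32.6%). So most Hu probes lay on the lower side with the medium change, while the array as a whole was evenly split. The lower calls were at probes of Elavl1, Elavl2 and Elavl4, and the higher call was at Elavl3. The family was chosen with earlier results of these data known, so this is a description and not a test. In TO-d against OT-d, 3 were higher and 4 lower (18.3% and 18.7%), and in TO-p against OT-p, 3 were higher and 1 lower (27.2% and 28.4%). In TO-d against WT-d, 4 were higher and 1 lower (23.9% and 21.4%). In TO-p against WT-p the sole call was the lower one of the Elavl1 middle probe (16.6% of all probes were higher and 16.1% lower). In OT-d against WT-d, 5 were higher and 2 lower (27.3% and 23.9%), and in OT-p against WT-p, 2 were higher and 2 lower (21.7% and 21.3%).

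The medium response itself differed between lines at many Hu probes. Between TO and OT, 3 probes were called with a higher and 1 with a lower response (18.9% and 19.3% of all probes). Between TO and WT these were 4 and 1 (19.3% and 16.9%), and between OT and WT 4 and 2 (19% and 14.5%). Probes of one gene were counted singly, so these counts are not counts of independent genes. Whether probes of one gene read the same transcript was not tested. The comparisons share groups with each other, and their results are given side by side for that reason. Of the 63 calls over 96 probe comparisons, 42 kept their call and direction under all alternatives run.

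Markers of other cell types were read in the same samples, as the log2 of their summed intensities. A sum weighs its highest members most. These were Chgb (mean 17.53) of the neuronal, Acta2 (12.53) of the fibroblast and smooth muscle and Mbp (9.34) of the glial markers. Members not above background, such as Olig1 (mean 6.04), also add to a sum, so the sums do not count cells of a type. This sum over 10 glial markers was 10.57 to 10.80 in TO-d, 10.78 to 10.98 in OT-d and 11.40 to 11.46 in WT-d, against 10.18 to 10.39 in TO-p, 10.14 to 10.29 in OT-p and 10.38 to 10.65 in WT-p, with 4 of the 10 well above background in all samples, Gfap in 5 samples and Olig1 in none. The sum of 10 fibroblast and smooth muscle markers was 12.81 to 13.28 over the groups in differentiation medium and 13.25 to 13.56 over those in proliferation medium. The sum of 10 blood and endothelium markers was 10.31 to 10.70 and 9.92 to 10.56, with Ptprc and Cdh5 above background in no sample. The sum of the 18 neuronal markers was 18.66 to 19.67 in differentiation medium and 17.98 to 19.10 in proliferation medium. The sum of the 12 sympathetic markers was 14.47 to 14.67 in TO-d, 15.36 to 15.54 in OT-d and 14.47 to 14.63 in WT-d, and 14.66 to 14.86 in TO-p, 15.14 to 15.22 in OT-p and 14.75 to 15.03 in WT-p. The part of these shifts in the results of the Hu probes was not tested. The samples were cultures of a single neuroblastoma line, and no share of cell types was measured. In bulk RNA, fewer cells of a type and less RNA per cell cannot be told apart.

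Genes that act on HuR were read as a list of 25, of which 24 were tested: enzymes that methylate, phosphorylate, deacetylate or ubiquitinate it, protein ligands, and carriers of nuclear transport. In differentiation medium 13 fell and 5 rose in TO, 15 fell and 7 rose in OT, and 13 fell and 6 rose in WT, with median differences of -0.26, -0.45 and -0.35. The shares that fell were 54.2, 62.5 and 54.2% of the list, beside 25.2, 33.9 and 32.6% of all probes, and the shares that rose were 20.8, 29.2 and 25%, beside 25.7, 33.2 and 32.6%. In the same 3 comparisons the median of all probes was 0.00, 0.00 and 0.02. Carm1, the arginine methyltransferase that methylates HuR, fell 1.78-fold in TO, 1.69-fold in OT and 2.36-fold in WT (adjusted p = 1.54e-10, 1.1e-10 and 2.87e-13). Cdk1, a mitotic kinase that phosphorylates HuR, fell 6.86-fold, 7.22-fold and 7.21-fold in the same order (adjusted p = 2.02e-10, 1.81e-11 and 2.01e-10). Kpna2, an importin alpha, fell 2.83-fold, 4.43-fold and 6.27-fold (adjusted p = 6.99e-12, 2.11e-15 and 5.76e-16). Xpo1, the export receptor, had log2 differences of -0.64, -1.08 and -1.57 (adjusted p = 4.54e-07, 1.25e-11 and 2.29e-13). Trim21 and Btrc, of ubiquitin ligases, rose in all 3 lines by 0.45 to 0.88 log2 units.

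In TO-p against OT-p, 14 of the 24 were lower and 5 higher (median -0.23, all probes -0.01), and in TO-d against OT-d, 6 were lower and 5 higher (median -0.03). The first of these counts are 58.3 and 20.8% of the list, beside 28.4 and 27.2% of all probes, and the second 25 and 20.8%, beside 18.7 and 18.3%. The 2 acidic nuclear phosphoproteins that bind HuR went opposite ways in proliferation medium. Anp32a averaged 9.57 ± 0.10 in TO-p and 8.74 ± 0.07 in OT-p (log2 0.86, adjusted p = 1.4e-09), and Anp32b averaged 15.28 ± 0.19 in TO-p and 15.98 ± 0.11 in OT-p (log2 -0.70, adjusted p = 1.18e-06, SD, n = 4). WT-p averaged 9.44 for Anp32a and 15.58 for Anp32b. OT-p was called lower than WT-p at Anp32a and higher at Anp32b (log2 -0.72 and 0.43, adjusted p = 1.29e-08 and 3e-04). In differentiation medium neither gene was called between TO-d and OT-d (log2 0.06 and -0.15). Prmt5, another arginine methyltransferase, was lower in TO-p cells than in OT-p cells by 0.56 log2 units (adjusted p = 6.26e-06), and Carm1 was lower by 0.22 in that medium and by 0.29 in TO-d against OT-d (adjusted p = 0.00572 and 0.00155). Sirt1 had the largest lower call without overlap in both media. Its log2 differences were -1.13 in TO-p against OT-p and -0.78 in TO-d against OT-d (adjusted p = 9.35e-10 and 1.53e-06). Against WT-d, Xpo1 was higher by 0.80 log2 units in TO-d and 0.70 in OT-d (adjusted p = 2.91e-07 and 1.81e-07), and Kpna2 by 0.98 and 0.78 (adjusted p = 2.08e-07 and 4.76e-07).

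Against WT, the list had 9 members higher and 6 lower in TO-d, 3 higher and 6 lower in TO-p, 12 higher and 4 lower in OT-d, and 11 higher and 2 lower in OT-p. The shares of all probes higher and lower were 23.9 and 21.4%, 16.6 and 16.1%, 27.3 and 23.9%, and 21.7 and 21.3%, while those of the list were 37.5 and 25%, 12.5 and 25%, 50 and 16.7%, and 45.8 and 8.33%. Its medians were 0.21, -0.01, 0.20 and 0.18 in that order, beside medians of all probes within 0.01 of 0.

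mRNAs known as Hu targets were a list of 34 with 30 tested. With the medium change 18 fell and 5 rose in TO, 15 fell and 12 rose in OT, and 15 fell and 9 rose in WT (medians -0.37, -0.22 and -0.20). These are 60, 50 and 50% of the list lower, beside 25.2, 33.9 and 32.6% of all probes, and 16.7, 40 and 30% higher, beside 25.7, 33.2 and 32.6%, so the share that rose in WT was near that of the array. Ccnb1 and Ccna2, cyclins of mitosis and S phase, were among those that fell: Ccnb1 had log2 differences of -5.26 in TO, -4.21 in OT and -5.56 in WT (adjusted p = 3.35e-18, 4.54e-17 and 4.26e-18), and Ccna2 of -4.51, -3.79 and -5.26 (adjusted p = 7.12e-16, 3.4e-15 and 1.08e-16). Ache, acetylcholinesterase, rose 4.95-fold, 18.39-fold and 10.22-fold in TO, OT and WT (adjusted p = 1.84e-10, 8.79e-16 and 4.96e-13). Mapt, the microtubule-associated protein tau, rose 2.90-fold, 6.03-fold and 4.94-fold (adjusted p = 2.81e-07, 7.97e-12 and 6.43e-10). Targets thus moved both ways.

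Between TO-p and OT-p, 11 targets were higher and 8 lower (median -0.01), and between TO-d and OT-d, 7 were higher and 12 lower (median -0.15). In TO-p against OT-p that is 36.7% higher and 26.7% lower, beside 27.2% and 28.4% of all probes. In TO-d against OT-d it is 23.3% higher and 40% lower, beside 18.3% and 18.7%. Cdkn1a, the cell cycle inhibitor p21, averaged 10.77 in TO-p and 9.63 in OT-p, and 9.82 in TO-d and 8.55 in OT-d (adjusted p = 5.01e-08 and 1.49e-07). It averaged 10.61 in WT-p and 9.80 in WT-d, near TO in both media. OT was lower than WT (log2 -0.99 in OT-p and -1.21 in OT-d, adjusted p = 4.46e-07 and 5.89e-08). Nrn1, neuritin, was 2.47-fold higher in TO-p cells than in OT-p cells (adjusted p = 4.1e-12), and 1.91-fold higher in TO-p cells than in WT-p cells (adjusted p = 1.53e-09). Dusp1, a MAP kinase phosphatase, was 1.53-fold lower in TO-p cells than in OT-p cells and 2.92-fold lower in TO-d cells than in OT-d cells (adjusted p = 5.58e-05 and 6.17e-10). Ache was 2.45-fold higher in TO-p cells than in OT-p cells and 1.51-fold lower in TO-d cells than in OT-d cells (adjusted p = 1.56e-06 and 0.0147). Against WT, targets were 8 higher and 9 lower in TO-d (26.7 and 30%, beside 23.9 and 21.4% of all probes) and 13 and 9 in OT-d (43.3 and 30%, beside 27.3 and 23.9%). They were 8 and 8 in TO-p (26.7 and 26.7%, beside 16.6 and 16.1%) and 3 and 10 in OT-p (10 and 33.3%, beside 21.7 and 21.3%).

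Other RNA-binding proteins that set mRNA stability, 35 tested of 37, moved both ways with the medium: 9 higher and 13 lower in TO, 11 and 14 in OT, and 9 and 16 in WT (medians 0.02, -0.08 and -0.10). The shares higher were 25.7, 31.4 and 25.7%, beside 25.7, 33.2 and 32.6% of all probes, and the shares lower 37.1, 40 and 45.7%, beside 25.2, 33.9 and 32.6%. Ptbp1, a repressor of neuronal splicing, fell 2.31-fold in TO, 2.72-fold in OT and 3.18-fold in WT (adjusted p = 1.3e-11, 8.23e-14 and 8.08e-14). Hnrnpd, the AU-rich element binding protein AUF1, fell 2.08-fold in TO and 3.63-fold in OT, where 3 OT-d samples had a usable value (adjusted p = 9.37e-10 and 6.28e-14). Its mean was also lower in WT-d (12.58, from 3 usable samples) than in WT-p (13.40). Rbfox1, a neuronal splicing factor, rose 1.83-fold in TO and 3.08-fold in OT, and was lower in WT-d than in WT-p by 0.36 log2 units with overlapping samples (adjusted p = 6.27e-07, 3.51e-12 and 0.0105).

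Between TO-p and OT-p, 5 of the 35 were higher and 15 lower, and between TO-d and OT-d, 7 were higher and 7 lower (medians -0.06 and 0.05). In TO-p against OT-p that is 14.3% higher and 42.9% lower, beside 27.2% and 28.4% of all probes. In TO-d against OT-d it is 20% each way, near the 18.3% and 18.7% of all probes. Ptbp2, the neuronal relative of Ptbp1, averaged 12.04 in TO-p and 10.55 in OT-p, and 11.51 in TO-d and 10.43 in OT-d (adjusted p = 3.56e-12 and 1.5e-09). Tial1, a translational repressor of stress granules, was 2.72-fold lower in TO-p cells than in OT-p cells and 1.75-fold lower in TO-d cells than in OT-d cells (adjusted p = 5.98e-09 and 0.000101). Rbfox3, the neuronal marker NeuN, was 1.73-fold lower in TO-p cells than in OT-p cells and 2.57-fold lower in TO-d cells than in OT-d cells (adjusted p = 1.69e-08 and 1.63e-11). Against WT the list had 10 higher and 7 lower in TO-d (28.6 and 20%, beside 23.9 and 21.4% of all probes) and 12 and 12 in OT-d (34.3 and 34.3%, beside 27.3 and 23.9%). It had 7 and 11 in TO-p (20 and 31.4%, beside 16.6 and 16.1%) and 11 and 3 in OT-p (31.4 and 8.57%, beside 21.7 and 21.3%).

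**Figure D4:**
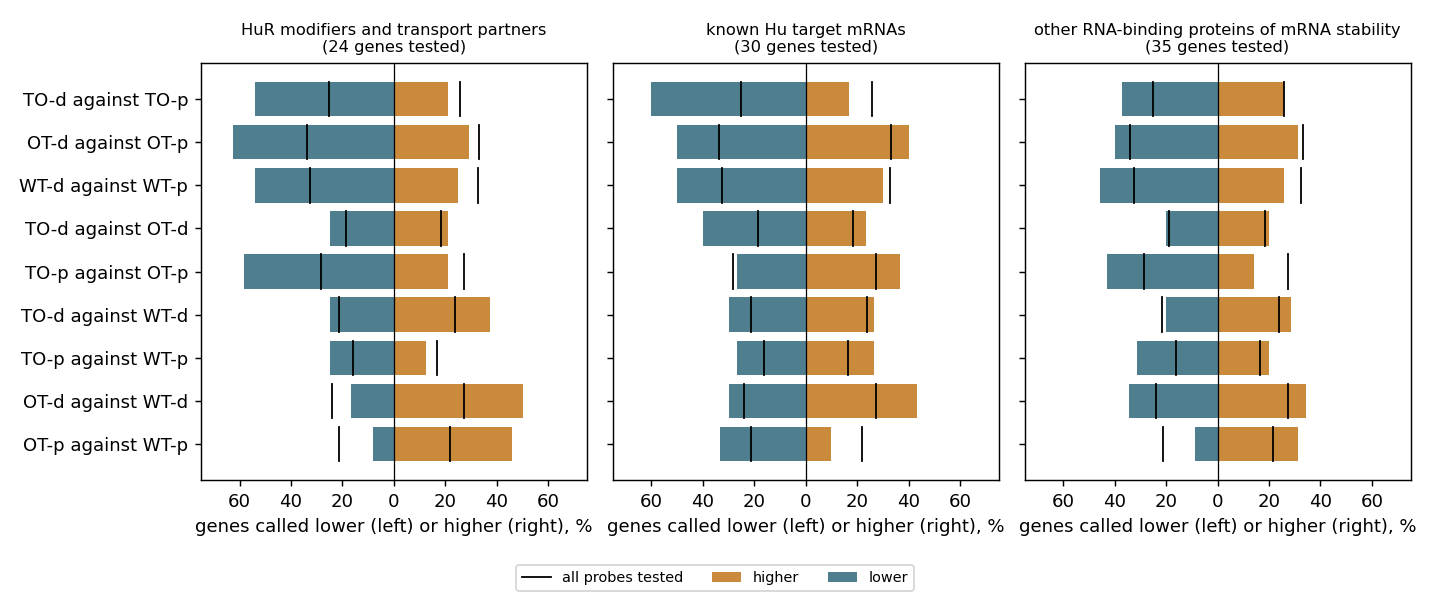
Share of the tested genes of 3 lists that were called higher (right) or lower (left), in percent, for 9 comparisons (rows); black lines give the same shares over all 24349 probes tested. In OT-d against OT-p, 15 of 24 HuR modifiers and transport partners were lower and 7 higher.

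The genes whose levels over the 24 samples were most like a Hu probe were taken from 13775 genes, by Pearson's r, as a description of samples that fall into 6 groups. For the Elavl1 middle probe these were Srsf7 (0.989), Larp7 (0.987) and Myl12b (0.983). For the Elavl1 5′ probe they were Arpp19 (0.944), Hdlbp (0.929) and Daxx (0.928), and for the 3′ probe Mycn (0.886), Tmc7 (0.869) and Ncan (0.865). The 3 Elavl1 probes shared none of these 9 genes. The Elavl2 3′ probe was most like Aldh5a1 (0.964), Nupr1 (0.950) and Phlda2 (0.946), and its 5′ probe most like Nup93 (0.961), Nars (0.960) and Ptpn6 (0.957). Elavl3 was most like Chmp5 (0.929), Ralgds (0.917) and Zfp329 (0.913). The Elavl4 3′ probe was most like Myt1 (0.955), Rhno1 (0.951) and Ncam1 (0.948), and its 5′ probe most like Diablo (0.975), Acot10 (0.962) and Tmem254a (0.951).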

How the data were processed

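RNA of 24 samples (0.2 µg each, per the labels) was hybridised to 12 arrays with 2 dyes. The deposited values used are the spot intensity and local background of each channel, written by Agilent Feature Extraction 10.5.1.1 with mm8 positions, per the file headers. With limma 3.58.1 and statmod 1.5.0 in R 4.3.3, backgrounds were corrected (normexp, offset 50), 1639 control spots were removed, channels were scaled by loess and Aquantile and spots of a probe were averaged. The background fit failed on 1 array, so local backgrounds above 3 times the channel's median were set to that median in the fit and their 192 values left out, a step added after the data were seen, as were 0.294% flagged values.

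limma fitted all 24 samples with group means and dye, arrays as random blocks (correlation 0.428), over 24349 probes; a call is a Benjamini-Hochberg adjusted p under 0.05, over all of them. A gene of a list was tested by its probe with the highest mean. The p-values measure the spread between these samples, which may be technical, since the labels do not tell whether cultures were separate. Replicate numbers did not pair the samples. The file names of probes were updated through RefSeq by accession (24375 probes), symbol (6301) or synonym (2426), and 8072 kept their name. Members, lists and markers were chosen with earlier results of these data known. All Hu probes are named. From each list up to 4 genes per direction and comparison could be named, those with the largest called changes between groups that do not overlap. Carm1, Sirt1, Ppp2ca, Anp32a, Anp32b and Xpo1 could always be given. Values of list genes in further comparisons (Ache, Rbfox1 and Hnrnpd) were added after they were seen. Alternatives changed the background, the scaling, the filter, the dye and array terms, slides and samples. Intervals are 95% intervals of the fit. The fits were tested on simulated data.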

Additional observations from a re-analysis of the deposited data

Results flagged for a closer look

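In 2 of 54 groups of 4 samples, 1 sample lay far from the other 3 by Dixon's criterion, which chance meets in about 1 of 20 groups. At the Elavl4 3′ probe, TO-p replicate 2 read 14.23, against 14.36 to 14.38 in the other 3 TO-p samples. At the Elavl4 5′ probe, WT-p replicate 2 read 11.07, against 11.29 to 11.31 in the other 3 WT-p samples.

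The change between media differed between lines, by the interaction term of the limma fit, in 15 of 24 tests at Hu probes. The first line's log2 response minus the second line's is given. For TO minus OT it was 0.74 at the Elavl1 middle probe, 0.62 at Elavl2 3′, 0.39 at Elavl2 5′ and -0.36 at Elavl3. For TO minus WT it was 0.91 at the Elavl1 middle probe, -0.48 at Elavl1 5′, 0.56 at Elavl2 5′, 0.68 at Elavl4 3′ and 0.62 at Elavl4 5′. For OT minus WT it was 0.45 at Elavl1 3′, -0.67 at Elavl1 5′, -0.53 at Elavl2 3′, 0.24 at Elavl3, 1.04 at Elavl4 3′ and 0.86 at Elavl4 5′.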

How the results depend on the processing

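Of 96 probe comparisons 63 were called, and 42 of these kept their call and direction under all alternatives run. The called falls of the Elavl1 middle probe with the medium stayed between -2.16 and -1.43 in TO, between -2.64 and -2.35 in OT and between -2.98 and -2.37 in WT. Leaving out 1 sample ended 9 calls, all named above. Other calls were lost only under other alternatives. Among them were Elavl2 3′ in TO-p against OT-p (adjusted p up to 0.0681) and Elavl1 5′ in TO-d against WT-d (up to 0.322). The cause was not tested for any change here, except that testing 1 probe per gene leaves 4 Hu probes. With 1 probe per gene, 2 Hu probes were called in TO-p against OT-p, 3 in TO-d against OT-d, 2 in TO-d against WT-d, 2 in OT-p against WT-p, 4 in OT-d against WT-d, 3 in TO-d against TO-p, 3 in OT-d against OT-p and 4 in WT-d against WT-p, with 2 and 1 in the medium response of TO against OT and against WT. In TO-p against OT-p (4 called in the fit reported) 2 were called with loess alone and with high local backgrounds kept in the fit, the design as first set, an alternative added after seeing the data. In TO-p against WT-p (1 called) 2 were called with the series table's values, with quantile normalization and with the slide as a covariate. In OT-p against WT-p (4 called) 2 were called when samples sharing a description number were averaged, and 2 without the 6 samples marked b. Loess alone moved the median of all probes to 0.13 in TO-d against WT-d.

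Leaving out each sample in turn gave 2 to 4 calls in TO-p against OT-p (2 without OT-p replicate 4), 5 to 7 in TO-d against OT-d, 1 to 2 in TO-p against WT-p (2 without WT-p replicate 2 or 4), 4 to 6 in TO-d against WT-d, 3 to 4 in OT-p against WT-p, 7 in OT-d against WT-d, 7 to 8 in TO-d against TO-p, 5 to 7 in OT-d against OT-p and 7 in WT-d against WT-p. The medium response gave 3 to 4 calls for TO against OT, 5 to 6 for TO against WT and 5 to 6 for OT against WT.

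Called differences changed sign in 3 cases. Elavl2 5′ in TO-p against OT-p came to -0.0376 (adjusted p = 0.864) with high local backgrounds kept. On slide 3 alone, Elavl1 3′ came to -0.12 in TO-d against WT-d and to -0.014 in OT-d against WT-d.

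The replicate numbers did not pair the samples: deviations of same-numbered samples had a median correlation of -0.0289 over 60 pairs (-0.296 to 0.299), and 1 of 24 samples correlated best with its own number. With the replicate block, fitted without dye, which the numbers share, 93 of 96 comparisons stayed on their side of the threshold. The other 3 were Elavl2 5′ in OT-p against WT-p (adjusted p = 0.0527), Elavl4 3′ in OT-d against OT-p (0.0522) and Elavl3 in the medium response of OT against WT (0.0515). Calls per comparison under the block were 4 in TO-p against OT-p, 7 in TO-d against OT-d, 3 in OT-p against WT-p and 5 in OT-d against OT-p.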
